A study of Mus musculus with 6 samples.

Results

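The mitochondrial ribosomal proteins were taken as every protein-coding gene of the deposited table whose symbol in GENCODE release M21 starts with *Mrpl* or *Mrps*. There were 78 such genes among the 18254 of the table, and all 78 had a mean of at least 5 normalized counts, the limit for testing. The study compared the medial prefrontal cortex (mPFC) of male *Shank3* transgenic (TG) mice, which carry an EGFP-tagged *Shank3* transgene, with that of their male wild-type (WT) littermates. All mice were on the C57BL/6J background, aged 10 to 12 weeks and without further treatment. The mPFC of 2 mice was pooled for a library, with 3 libraries per genotype (numbered 1 to 3 in each), so a replicate is a pool of animals. The unit throughout is the normalized read count, that is, the estimated reads of a gene divided by the size factor of the library.

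Mitochondria keep a small genome of their own and translate its messages on a separate ribosome, the mitoribosome. Its RNAs come from mitochondrial DNA, while its proteins are encoded in the nucleus, made in the cytosol and imported. The proteins made on it are core subunits of the respiratory chain and of ATP synthase, on which neurons with their high energy demand depend. By the unified nomenclature of ribosomal proteins, 51 of the 78 genes encode proteins of the large subunit, in which peptide bonds are formed, and 26 encode proteins of the small subunit, which binds the mRNA. *Mrps36* encodes neither, since its product is a component of the α-ketoglutarate dehydrogenase complex (KGD4). *Mrps30* (mL65) and *Mrps18a* (mL66) are counted with the large subunit despite their symbols. Of the 77 ribosomal members, 46 have a bacterial counterpart and 31 are specific to mitochondria.

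The library totals lay between 28363967 and 29447717 normalized counts. *Shank3*, the gene that was overexpressed, had 17470, 19004 and 16310 normalized counts in TG-1, TG-2 and TG-3 and 8374, 8173 and 6791 in WT-1, WT-2 and WT-3, with no overlap. Its log2 fold change was 1.18 (2.27-fold), with an adjusted p-value of 0.0643 in limma's test, so that even this gene was not called between the genotypes. With the replicate number as a block its adjusted p-value was 0.000437. All 6 excitatory and all 6 inhibitory neuron markers examined were detected in each library. The libraries numbered 3 stood apart from the others in both genotypes. Across the 16714 tested genes, their deviations from the genotype means correlated with r = 0.62 (a description across genes, which are not independent replicates). The counts of called members and list genes that rest on them are therefore given with and without each of them. The counts of called neighbouring genes are given only with both. Nothing in the labels says what the replicate number stands for.

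The members gave between 58.2 and 1982 normalized counts in a library. Together they made up 0.169%, 0.166% and 0.175% of the normalized counts in the TG libraries 1 to 3, and 0.171%, 0.164% and 0.174% in those of WT. The genotypes overlapped in this share, and the highest value of each genotype came from the library numbered 3. Per kilobase of annotated exon, the mean over the 6 libraries ran from 29.6 to 935 normalized counts, a 31.6-fold range, with a median of 247. *Mrpl41* (935 normalized counts per kilobase; a large-subunit protein specific to mitochondria), *Mrps21* (872; bS21m of the small subunit) and *Mrpl27* (727; bL27m, which lies near the peptidyl transferase centre) stood highest on this scale. *Mrpl23* (29.6; uL23m, at the exit of the peptide tunnel), *Mrps35* (37.2) and *Mrpl33* (38.9; bL33m) stood lowest. The annotated exon length counts retained introns as well, and the order depends on it. Per kilobase of the longest protein-coding transcript the range was 74.0 to 1321 normalized counts, or 17.8-fold, with a median of 412. On that scale *Mrps21* (1321) and *Mrpl42* (1164; 211 by exon length) stood highest, *Mrpl41* (1070) was at rank 76 and *Mrpl27* (947) at rank 72 of the 78 counted from the lowest. *Mrpl33* (596) and *Mrpl23* (196) were at ranks 59 and 14, while *Mrps35* (77.2) stayed at rank 2.

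The members lay on 17 chromosomes, with 11 of them on chromosome 11. A head-to-head arrangement, in which the gene and a tested protein-coding neighbour on the other strand start within 1000 bases of each other and run apart (their first exons may overlap), was found for 33 of the 78 members (42.3%). Among all 15840 tested protein-coding genes the share was 13.3%. In 1 case both genes of the pair were members, namely *Mrpl46* (mL46) and *Mrps11* (uS11m) on chromosome 7, whose annotated starts are 412 bases apart. *Mrps12* (uS12m, a protein of the decoding centre) starts 172 bases from *Sars2*, which encodes the mitochondrial seryl-tRNA synthetase. Promoter sequences (RefSeq, GRCm38.p6, 250 bases before to 50 bases after the start) were at hand for 69 members and for 12247 tested protein-coding genes. In them, 3 motifs of factors known from genes for mitochondrial proteins were searched on both strands. The core of the NRF1 site (GCATGCGC) was found in 8 of the 69 members (11.6%; 5.30% of all 12247), the ETS site bound by GABPA (CCGGAAGT) in 12 (17.4%; 7.70%) and the YY1 site (AAGATGGCG) in 8 (11.6%; 2.95%). At least 1 of these motifs was found in 26 members (37.7%) against 14.9% of all genes, and a TATA box (TATAAA) in 5 members (7.25%) against 9.59%. These are matches of letters in a fixed window and not measured binding.

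Promoters of 4 members are printed to show what these windows look like, with matches to the NRF1, ETS or YY1 motifs in capitals. *Mrps12* had the smallest p-value of the members in the comparison of the libraries numbered 3, and *Mrpl51* (mL51) was the member with the smallest p-value among those that were lower there. *Mrpl33* holds an NRF1 and an ETS match next to each other, and *Mrps11* is a gene of the member pair and holds a YY1 match.
*Mrps12*, chr7:28741772-28742071, minus strand, no match: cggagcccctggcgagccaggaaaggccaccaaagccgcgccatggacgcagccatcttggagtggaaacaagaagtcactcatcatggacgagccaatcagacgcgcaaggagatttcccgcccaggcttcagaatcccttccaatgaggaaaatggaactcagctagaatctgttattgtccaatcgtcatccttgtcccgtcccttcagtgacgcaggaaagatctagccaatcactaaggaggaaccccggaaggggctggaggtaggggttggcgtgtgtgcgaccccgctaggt
*Mrpl33*, chr5:31613701-31614000, plus strand: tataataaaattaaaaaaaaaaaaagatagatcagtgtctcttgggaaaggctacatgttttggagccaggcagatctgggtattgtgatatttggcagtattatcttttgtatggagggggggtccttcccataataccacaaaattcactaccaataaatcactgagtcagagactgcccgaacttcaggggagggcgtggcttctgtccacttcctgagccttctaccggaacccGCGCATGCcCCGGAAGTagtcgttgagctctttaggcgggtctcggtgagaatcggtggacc
*Mrpl51*, chr6:125191950-125192249, plus strand: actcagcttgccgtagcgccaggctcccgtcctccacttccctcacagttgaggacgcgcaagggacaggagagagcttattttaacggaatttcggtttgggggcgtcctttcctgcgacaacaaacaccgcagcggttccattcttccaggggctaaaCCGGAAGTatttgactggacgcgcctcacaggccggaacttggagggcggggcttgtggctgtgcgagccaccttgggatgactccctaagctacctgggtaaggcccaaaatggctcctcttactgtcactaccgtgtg
*Mrps11*, chr7:78782881-78783180, plus strand: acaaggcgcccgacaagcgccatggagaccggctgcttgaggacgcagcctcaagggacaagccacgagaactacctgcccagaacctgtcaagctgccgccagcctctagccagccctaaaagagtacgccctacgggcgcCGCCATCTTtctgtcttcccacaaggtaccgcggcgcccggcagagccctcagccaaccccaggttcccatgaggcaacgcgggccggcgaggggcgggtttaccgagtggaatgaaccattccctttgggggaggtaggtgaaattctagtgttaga

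To ask whether *Shank3* overexpression was accompanied by a change in mitoribosomal mRNAs, TG was compared with WT. None of the 78 members passed the test, with 36 higher and 42 lower in TG and a median log2 fold change of -0.00. In limma's test with Benjamini-Hochberg adjustment over the 16714 tested genes, 0 members were called (background 0%), and 0 had an unadjusted p-value under 0.05, against a background of 2.01%. The smallest adjusted p-value of a member was 1.00. The interquartile range of the log2 fold changes was 0.07 for the members and 0.14 for all tested genes, whose median level was lower (488 against 632 normalized counts). It was 0.07 as well for the cytosolic ribosomal proteins and for the nuclear subunits of oxidative phosphorylation. The 95% confidence interval of the difference lay within 0.3 on the log2 scale (1.23-fold) for 34 members, within 0.5 (1.41-fold) for 71 and within 0.75 (1.68-fold) for 77. The exception was *Mrpl23*, with an estimate of -0.28. In bulk tissue, a difference in the number of cells of a type cannot be told apart from a difference in RNA per cell. The 8 oligodendrocyte markers summed to between 75376 and 98085 normalized counts in the TG libraries and between 112452 and 114535 in the WT libraries. All 8 were lower in TG (median log2 fold change -0.44), 7 of them at an unadjusted p-value under 0.05 and 0 after adjustment, and none was at 0. The 6 leptomeningeal markers summed to between 3902 and 4596 in TG and between 3285 and 3676 in WT. All 6 were higher in TG (median log2 fold change 0.27), 2 of them at an unadjusted p-value under 0.05 and 0 after adjustment, and none was at 0. The 6 olfactory bulb markers summed to 1552 normalized counts in TG-2 and to between 207 and 404 in the other libraries, with 1 marker at 0 in WT-2. The 6 choroid plexus markers summed to between 111 and 572 in TG and between 88.4 and 176 in WT, and so overlapped. Of them 4 were higher and 2 lower in TG (median log2 fold change 0.36), 1 at an unadjusted limma p-value under 0.05. Of the 6 striatal neuron markers 2 were higher and 4 lower (median -0.19), 0 at that threshold. In the other marker lists the medians lay between -0.02 and 0.04. The part of these marker differences in the members' values was not tested.

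**Figure D1:**
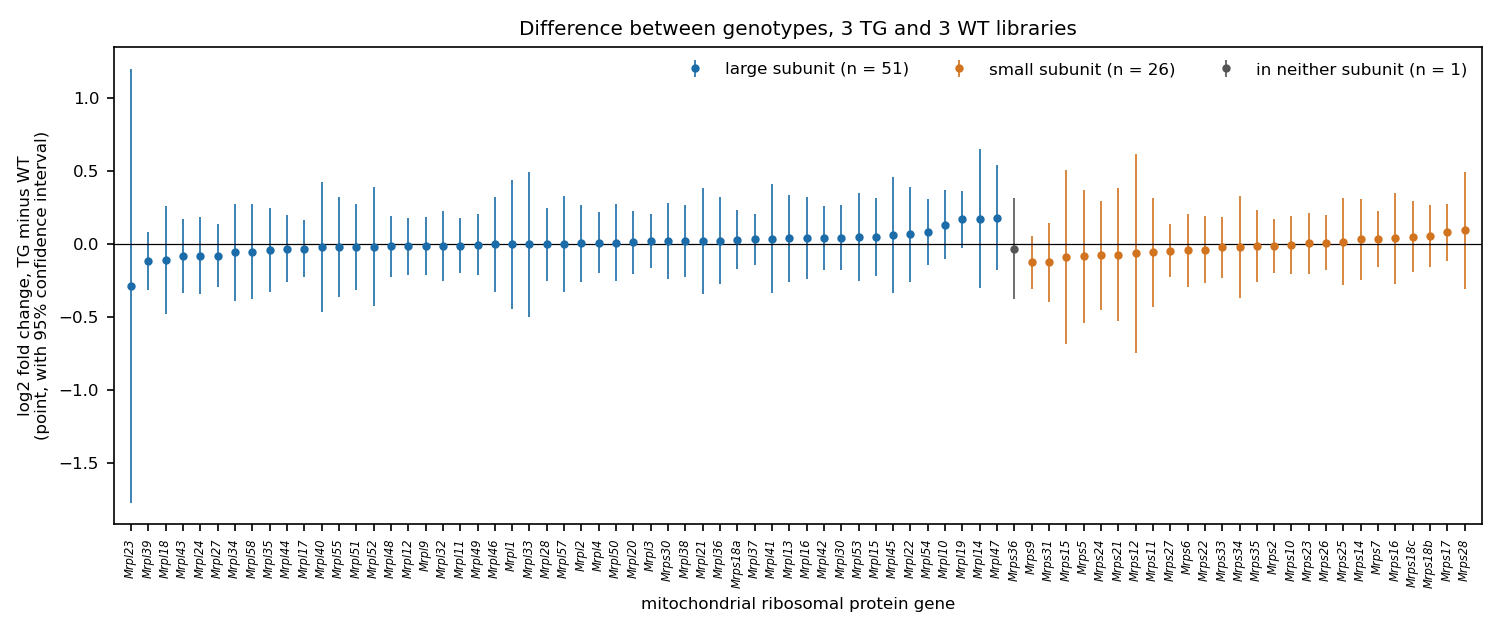
Log2 fold change of TG minus WT for each of the 78 members (points, from 3 TG and 3 WT libraries) with its 95% confidence interval from limma (lines), grouped by ribosomal subunit and ordered by size. All 78 intervals cross 0, and that of *Mrpl23* is by far the widest.

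Of the members, *Mrpl19*, *Mrps9* and *Mrpl39* were those whose TG and WT libraries did not overlap. Among all tested genes, the 3 TG libraries lay above the 3 WT libraries for 2.91% and below them for 3.12%, and among the members for 1 and 2 genes. In both directions together this was 3.85% of the members against a background of 6.02%, and after the correction for transcript length and GC content described further on it was 1 member (1.28%) against 5.97%. *Mrpl19* (bL19m, a protein at the interface with the small subunit) had 742, 755 and 744 normalized counts in TG and 625, 711 and 659 in WT. Its mean was 747 ± 7.13 in TG and 665 ± 43.6 in WT (SD, n = 3). The log2 fold change was 0.17 (SE 0.08), and it was not called. With the replicate number as a block its unadjusted limma p-value was 0.0451, the only member under 0.05 against a background of 4.98%, and its adjusted p-value did not pass the threshold.

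*Mrps9* (uS9m, whose bacterial counterpart contacts the tRNA in the P site) had 686, 659 and 675 normalized counts in TG and 769, 715 and 719 in WT. The TG values lay below the WT values, with a log2 fold change of -0.12 (SE 0.08). *Mrpl39* (mL39) had 461, 504 and 483 in TG and 513, 522 and 531 in WT, with a log2 fold change of -0.11 (SE 0.08). Neither gene passed the test. The other members with the smallest p-values had overlapping genotypes. They were *Mrpl10*, *Mrpl47*, *Mrps17* and *Mrpl14*, with estimates of 0.08 to 0.18, and *Mrps31*, *Mrpl27* and *Mrpl43*, with estimates of -0.12 to -0.08. *Mrpl14* (uL14m) had 209, 180 and 289 normalized counts in TG and 198, 163 and 233 in WT, and its estimate of 0.18 became -0.0151 without TG-3.

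The members examined for their roles had overlapping genotypes. *Mrpl12* (bL12m), which forms the stalk that recruits translation factors, had 1076, 985 and 973 normalized counts in TG and 1094, 970 and 1003 in WT. *Mrpl3* (uL3m), which borders the peptidyl transferase centre, had 1525, 1471 and 1492 in TG and 1508, 1560 and 1361 in WT. In both genes the TG values lay within or across the range of the WT values. *Mrpl44*, which has a fold related to ribonuclease III, had 350.6 ± 24.2 in TG and 358 ± 14.7 in WT (SD, n = 3), and *Mrps30* had 439 ± 12.4 and 434 ± 52.9. The 3 *Mrps18* paralogues differ in place, since the products of *Mrps18b* and *Mrps18c* sit in the small subunit and that of *Mrps18a* in the large. *Mrps18a* had 879 ± 23.9 in TG and 861 ± 70.0 in WT, *Mrps18b* 528 ± 35.6 and 508 ± 19.7, and *Mrps18c* 361 ± 20.0 and 348 ± 27.3 (SD, n = 3). Each of the 3 overlapped between the genotypes.

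When the libraries numbered 3 were left out, 0 members were called and 0 had an unadjusted p under 0.05 in the limma fit of TG-1 and TG-2 against WT-1 and WT-2. The median log2 fold change of the members was -0.00 there too. With 2 libraries a genotype, 17 members (21.8%) did not overlap, against a background of 26.1%.

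The libraries TG-3 and WT-3 were then compared with the other 4 libraries, with the genotype in the model. This split was known from earlier results of these data, so the p-values do not test a grouping set beforehand. Here 17 of the 78 members passed the test, 15 higher and 2 lower in the libraries numbered 3. The backgrounds were 7.66% of all tested genes called higher and 6.36% called lower, and the members' shares were 15 of 78 and 2 of 78. The members with the smallest p-values were *Mrps12*, *Mrps15* and *Mrps5*, which rose and encode small-subunit proteins with bacterial counterparts. The members called lower were *Mrpl51* and *Mrps34*, both specific to mitochondria, whose p-values were the largest of the 17. Of the 78, 48 were higher and 30 lower, and the median log2 fold change was 0.07 against -0.00 over all tested genes. Both libraries numbered 3 lay above the other 4 for 30 members and below them for 14, against backgrounds of 20.3% and 20.6%. The z-scores of all genes in this comparison were 1.94 times as wide as a standard normal distribution. After division by this width, 0 of the 78 members and 0% of all tested genes were called. With limma's eBayes step without trend, 5 members (6.41%) were called against a background of 3.19%. Without TG-3, 3 members were called (*Mrps12*, *Mrps15* and *Mrps5*; 3.85%, background 3.04%), and without WT-3 only *Mrps12* (1.28%, background 1.33%). Without TG-1 or without TG-2, 10 members were called (12.8%), against backgrounds of 8.38% and 9.63%. It was 14 without WT-1 (17.9%, background 15.3%) and 9 without WT-2 (11.5%, background 12.3%). Against 14.0% of all genes and 21.8% of the members in the full comparison, both shares fell under each of these settings, except that the share of all genes rose without WT-1.

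The plot of TG-3 and WT-3 differences sets the deviation within TG beside that within WT for each member. The correlation of these differences was r = 0.82 across the 78 members, and r = 0.62 across all 16714 tested genes, both as descriptions. Each difference is a fixed multiple of the deviation from the genotype mean. The r = 0.62 is thus the value already given for the deviations and not a further observation. The sign was the same in both genotypes for 61 members (78.2%) and for 72.2% of all genes, and it was opposite for the other 17 members. The genotypes share no library, and the median difference of the members was 0.10 within TG and 0.06 within WT.

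**Figure D2:**
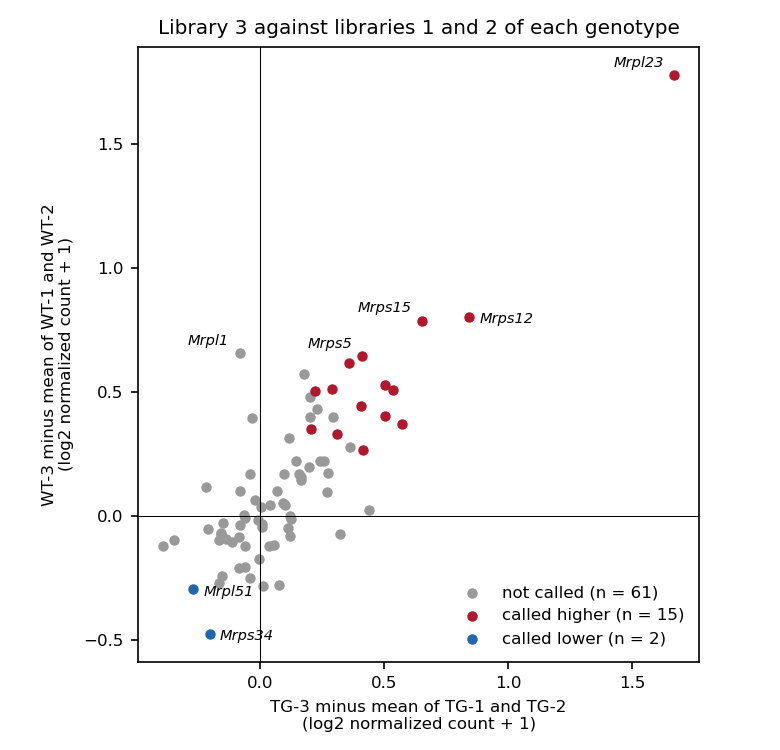
For each member, the difference of TG-3 from the mean of TG-1 and TG-2 (horizontal) and of WT-3 from the mean of WT-1 and WT-2 (vertical), on the scale of log2(normalized count + 1). The 15 members called higher lie up and to the right, the 2 called lower lie down and to the left, and *Mrpl1* is at -0.08 in TG and 0.66 in WT.

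*Mrps12* had 555, 562 and 1002 normalized counts in the TG libraries 1 to 3, and 646, 536 and 1027 in those of WT. Both libraries numbered 3 lay far above the other 4, whose mean was 575 ± 49.0 (SD, n = 4). The log2 fold change was 0.82 (SE 0.09), with an adjusted p-value of 0.000904 in limma's test. *Sars2*, its head-to-head neighbour, had a log2 fold change of 0.05 with an adjusted p-value of 0.778.

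*Mrps15* (uS15m, a protein that binds the small-subunit RNA) had 524, 518 and 820 normalized counts in TG and 556, 518 and 927 in WT. The other 4 libraries spread little, with 529 ± 18.3 (SD, n = 4), and the log2 fold change was 0.72 (SE 0.08; adjusted p = 0.000907 in limma's test). *Mrps5* (uS5m, at the entrance of the mRNA channel) had 1001, 1076 and 1382 in TG and 1039, 1046 and 1628 in WT, with a log2 fold change of 0.53 (SE 0.08; adjusted p = 0.00347 in limma's test). Its rise was 0.41 within TG and 0.64 within WT. *Mrps21* had 577, 518 and 792 in TG and 596, 560.5 and 823 in WT, with a log2 fold change of 0.52 (SE 0.08; adjusted p = 0.00515 in limma's test). In these 3 genes no value of the other 4 libraries reached either library numbered 3.

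The remaining members called higher, named here because they passed the test, were *Mrpl23*, *Mrpl45*, *Mrpl41*, *Mrpl40*, *Mrpl18*, *Mrpl33*, *Mrpl21*, *Mrpl58*, *Mrps36*, *Mrpl35* and *Mrpl14*. Apart from *Mrpl23*, their log2 fold changes ran from 0.28 (*Mrpl35*) to 0.51 (*Mrpl33*). *Mrpl45* (mL45), which ties the ribosome to the inner membrane at the tunnel exit, had 671, 662 and 944 normalized counts in TG and 666, 639 and 864 in WT. *Mrpl58* (mL62), a peptidyl-tRNA hydrolase built into the large subunit that can release peptides from stalled ribosomes, had 778, 687 and 906 in TG and 796, 713 and 947 in WT. *Mrps36*, the member outside the ribosome, had 419, 369 and 524 in TG and 422, 409 and 499.8 in WT. In each of these 3 genes both libraries numbered 3 were the highest. *Mrpl58* and *Mrps36* were not called after the correction for transcript length and GC content, *Mrpl14* was not called with no filter on low values, and neither *Mrpl14* nor *Mrpl35* was called with quantile scaling.

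**Figure D3:**
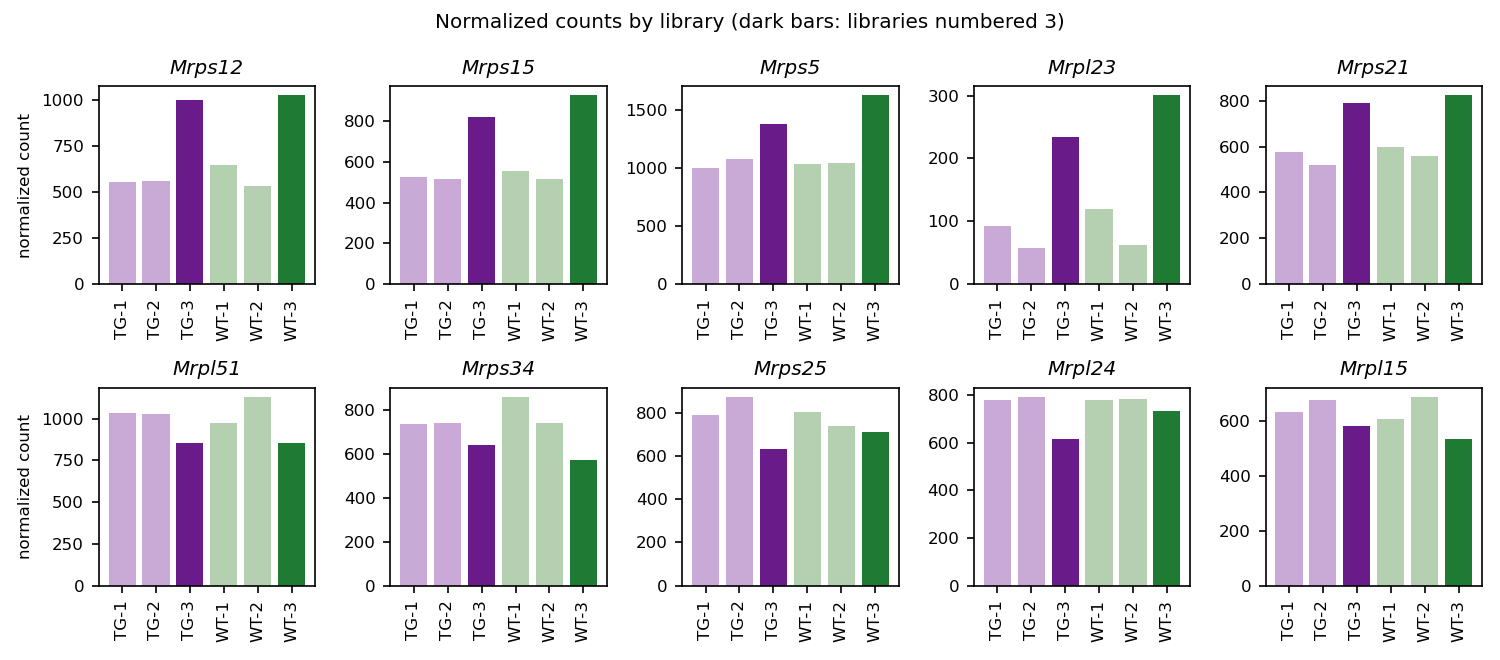
Normalized counts of the 5 members with the smallest p-values in each direction in the comparison of the libraries numbered 3, by library (linear scale, bars start at 0, dark bars are TG-3 and WT-3). In the upper row the dark bars stand above all others, and in the lower row they stand below all others.

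*Mrpl51* had 1033, 1028 and 854 normalized counts in TG and 974, 1130 and 854 in WT, which gives a log2 fold change of -0.28 (SE 0.08; adjusted p = 0.0470 in limma's test). *Mrps34* (mS34) had 738, 744 and 643 in TG and 861, 742 and 575 in WT, which gives a log2 fold change of -0.34 (SE 0.10; adjusted p = 0.0477 in limma's test). Both calls sit at the threshold and were lost when the libraries were scaled to the same upper quartile, with adjusted p-values of 0.0502 and 0.0590. *Mrps25* (mS25), *Mrpl24* (uL24m) and *Mrpl15* (uL15m) followed with log2 fold changes of -0.25, -0.22 and -0.22 and were not called. After the correction for transcript length and GC content *Mrpl24* and *Mrpl15* were called, with adjusted p-values of 0.0245 and 0.0426 in limma's test. The exons of *Mrps34* overlap those of *Mapk8ip3* on the other strand over 63.4% of their length and those of *Nme3* on its own strand over 37.0%, and the exons of *Mrps25* overlap *Nr2c2* on the other strand over 69.8%. How the counting treated strand is not given in the sources used here, so whether reads of these genes and their neighbours were kept apart is not known.

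*Mrpl23* had the highest fold change of the members and is uncertain, because the genome holds a processed pseudogene whose sequence it shares. Its values were 91.7, 58.2 and 234 normalized counts in TG and 120, 62.7 and 300.3 in WT, which gives a log2 fold change of 1.72 (SE 0.27; adjusted p = 0.00466 in limma's test). *Mrpl23-ps1* (ENSMUSG00000075279, chromosome 2 from 74591330 to 74591909) has a row of its own, with 294, 286 and 183 normalized counts in TG and 349, 339 and 178 in WT. The copy was thus lowest where *Mrpl23* (ENSMUSG00000037772, chromosome 7 from 142532686 to 142540747) was highest. The 580-base copy and a 692-base *Mrpl23* mRNA were aligned over 540 bases, of which 540 were identical, including the whole coding sequence from base 167 to base 604. Of the words of 31 bases in that mRNA, 77.0% were also in the copy, and of those in the copy 94.6% were in *Mrpl23* transcripts. To show the stretch that the genes have in common, the first 150 coding bases, which are the same letter for letter in the copy, are printed from the GENCODE transcript.
*Mrpl23* and *Mrpl23-ps1*: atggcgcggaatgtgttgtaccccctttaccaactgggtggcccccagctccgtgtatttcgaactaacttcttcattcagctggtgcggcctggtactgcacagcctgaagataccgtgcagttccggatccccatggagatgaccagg

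The share of *Mrpl23* in the sum of both rows was 23.8%, 16.9% and 56.2% in the TG libraries 1 to 3 and 25.6%, 15.6% and 62.7% in those of WT. The sum itself was 386, 344 and 417 in TG and 469, 401 and 479 in WT, so that the libraries numbered 3 no longer stood clear of the others. Its log2 fold change between the libraries numbered 3 and the others was 0.17 (SE 0.10), with an adjusted p-value of 0.306 in limma's test. With the sum in place of *Mrpl23*, 16 members (20.5%) were called, 14 of them higher, against a background of 14.0% called in either direction.

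**Figure D4:**
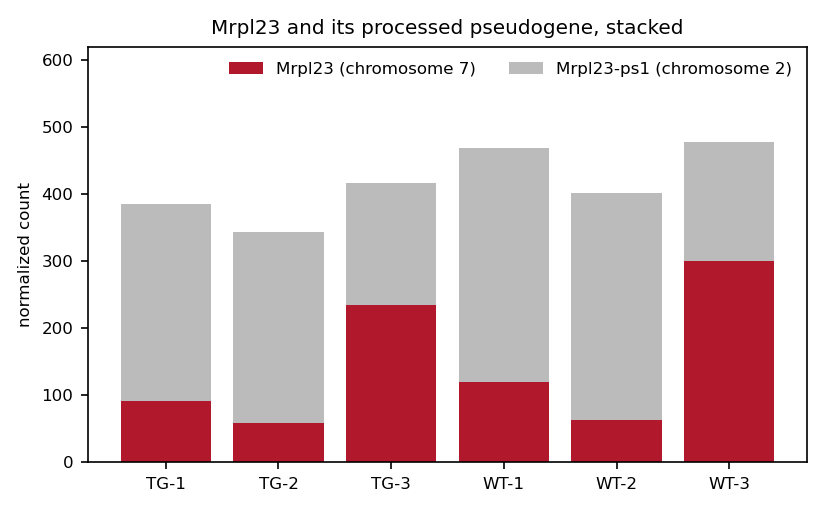
Normalized counts of *Mrpl23* and of its processed pseudogene *Mrpl23-ps1* in each library, stacked from 0. *Mrpl23* takes 56.2% and 62.7% of the sum in TG-3 and WT-3 and between 15.6% and 25.6% in the other libraries, while the sum lies between 344 and 479.

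Over all annotated transcripts of a member, words of 31 bases found in transcripts of another gene, on either strand, made up a median of 6.50% of its words, and 14.2% for *Mrpl23*. They were over 50% for 3 members, *Mrpl53*, *Mrps34* and *Mrps25*, and over 10% for 29. *Mrpl53* shares 84.4% of its words with the annotated gene *Gm42688* on the same strand. It was not called, with a log2 fold change of 0.16 and an adjusted p-value of 0.392 in the limma comparison of the libraries numbered 3. The share was 0% for *Mrps12* and *Mrps15* and 10.5% for *Mrps5*.

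By subunit, 10 of the 51 large-subunit members were called higher and 1 lower (21.6% in all), and 4 of the 26 small-subunit members were called higher and 1 lower (19.2%). The background was 7.66% higher and 6.36% lower, together 14.0%. The median log2 fold changes were 0.13 and 0.00. Of the 46 members with a bacterial counterpart, 10 were called higher and 0 lower (median 0.13), and of the 31 specific to mitochondria 4 were called higher and 2 lower (median 0.02), which is 21.7% and 19.4% against the same background. No test of these differences between classes was made, and the few calls left without TG-3 or without WT-3, given above, cannot compare classes. The member pair *Mrpl46* and *Mrps11* gave estimates of 0.30 and 0.33, neither of which was called (adjusted p = 0.0699 and 0.0908 in limma's test). Of the 31 neighbours that are not members, 6 were called higher and 3 lower, against backgrounds of 7.66% and 6.36%. Of these 9, 7 lie beside members that were not called. Of the 9 called members with a head-to-head neighbour, 2 had a neighbour that was called as well (background 14.0%). *Mrpl14* rose together with *Tmem63b* (0.22), and *Mrpl18* rose while *Tcp1*, a subunit of the cytosolic chaperonin, fell by 0.37 on the log2 scale. Neither *Mrpl14* nor *Mrpl18* was called without TG-3 or without WT-3, where the neighbours were not examined. Over the 33 members with such a neighbour, the estimates of gene and neighbour correlated with r = -0.14, a description across genes with their libraries in common.

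The estimates in the comparison of the libraries numbered 3 were set beside transcript length. The Spearman correlation of the estimate with transcript length was -0.42 across the 78 members and -0.06 across the 16681 tested genes with a length, given as descriptions. The 15 members called higher had a median transcript length of 937 bases and the 61 members not called one of 1411 bases. In the 3 members of up to 500 bases the median estimate was 0.51, against 0.16 in all 262 tested genes of that length. It was 0.18 in the 21 members of 500 to 1000 bases, against 0.13 in 988 genes, and 0.04 in the 22 of 1000 to 1500 bases, against 0.03 in 1540 genes. It was -0.05 in the 7 members of 1500 to 2000 bases, against 0.00 in 1819 genes, and 0.04 in the 16 of 2000 to 4000 bases, against -0.01 in 6630 genes, so that the medians did not fall steadily with length. In the 9 members over 4000 bases it was -0.04, against -0.02 in 5442 genes. After a smooth correction of each library for transcript length and GC content, 18 members (23.1%) were called against a background of 19.5%, 15 of them among the 17. Of the 18, 14 were higher and 4 lower, against backgrounds of 8.15% and 11.3%, and the median of the members was 0.0276. The members' median length was 1328 bases and that of all tested genes 3024.

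Some markers of cell types were also called between the libraries numbered 3 and the others, against the background of 14.0%. The 6 excitatory neuron markers summed to 257350 and 252072 normalized counts in TG-3 and WT-3 and to between 192973 and 218228 in the other libraries, with 2 called higher. The 6 astrocyte markers summed to 110851 and 113562 against 116282 to 128342, with 2 called lower, and the 6 microglia markers to 7817 and 8218 against 8906 to 10509, with 3 called lower. The 6 choroid plexus markers summed to 572 and 176 against 88.4 to 216, so that WT-3 lay within the others, with 1 called higher. The 6 endothelial markers summed to 8812 and 9513 against 7536 to 8852, with 1 called higher and 1 lower. Of the 8 oligodendrocyte and the 6 leptomeningeal markers 1 each was called lower, of the 6 striatal neuron markers 1 higher, and of the inhibitory neuron and olfactory bulb markers 0. Without TG-3, and likewise without WT-3, 1 excitatory and 1 endothelial marker were called higher and 0 of the others. After the length and GC correction 2 inhibitory neuron and 3 astrocyte markers were called lower (background 11.3%). The counts of the other marker lists stayed the same. Apart from 1 olfactory bulb marker in WT-2, no marker was at 0 in a library. Their part in the members' values was not tested.

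The difference between the libraries numbered 3 and the others was called different between the genotypes for 0 of the 78 members. An unadjusted p-value under 0.05 for that interaction was found for 1 member, against a background of 3.39%. It was *Mrpl1* (uL1m, in the stalk that releases spent tRNA), which is named after its values had been seen. It had 369, 379 and 353 normalized counts in TG and 286, 348 and 498 in WT, so that WT-3 was the highest library and TG-3 lay within the others.

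**Figure D5:**
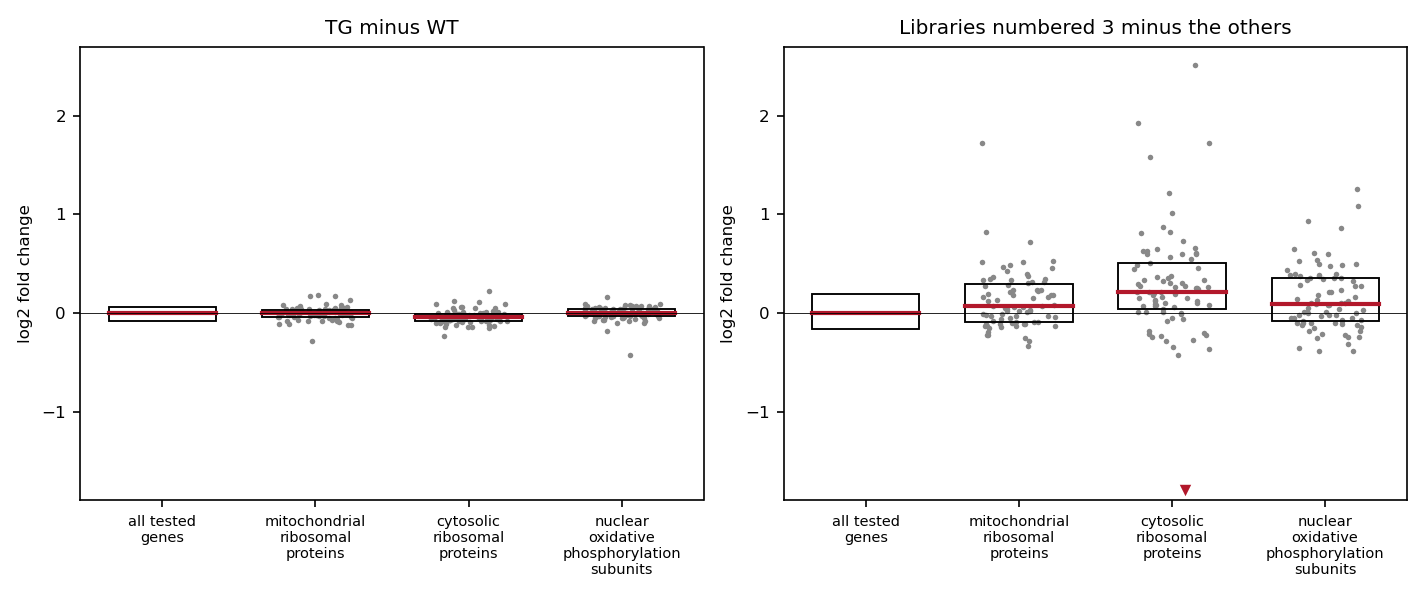
Log2 fold changes of TG minus WT (left) and of the libraries numbered 3 minus the others (right) for the 78 members, 81 cytosolic ribosomal protein genes and 82 nuclear oxidative phosphorylation genes (grey points), with boxes from the lower to the upper quartile and red lines at the median. The leftmost box gives the same for all 16714 tested genes, and the red triangle marks a cytosolic gene at -9.30, below the axis.

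Cytosolic ribosomal proteins and the nuclear subunits of oxidative phosphorylation were set beside the members. In the comparison of the libraries numbered 3, 35 of 81 cytosolic ribosomal protein genes were called higher and 5 lower (median 0.21), and 24 of 82 oxidative phosphorylation genes higher and 6 lower (median 0.09). The members had 15 of 78 and 2 of 78, with a median of 0.07, the background was 7.66% higher and 6.36% lower, and the difference between the lists was not tested. Without TG-3, 17 cytosolic genes were called higher and 2 lower and 8 oxidative phosphorylation genes higher (background 2.26% higher and 0.773% lower), and without WT-3 7 and 1 of the cytosolic genes and 1 oxidative phosphorylation gene (background 0.935% and 0.396%). After the length and GC correction the medians were 0.18, 0.03 and, for the members, 0.03, against -0.04 over all tested genes. There 33 cytosolic genes were called higher and 10 lower, and 25 oxidative phosphorylation genes higher and 9 lower. The backgrounds were 8.15% higher and 11.3% lower. Between the genotypes 0 genes were called in each list, and the medians were -0.04 for the cytosolic genes, of which 64 were lower and 17 higher in TG, and -0.00 for oxidative phosphorylation. The 13 protein-coding genes of mitochondrial DNA examined took 9.24%, 8.89% and 9.87% of the normalized counts in TG and 8.76%, 8.75% and 11.3% in WT. Of these 13, which encode what the mitoribosome translates, 5 were called higher in the libraries numbered 3 (median 0.27) and 0 in TG against WT. Without TG-3 it was 3 and without WT-3 it was 1.

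Other genes of mitochondrial translation were examined as lists. Of all tested genes, 7.66% were called higher and 6.36% lower in the libraries numbered 3. Of the 5 mitoribosomal proteins with other symbols, *Chchd1* (mS37) was called higher in the libraries numbered 3, with 392, 391 and 504 normalized counts in TG and 379, 399 and 598 in WT. Of 26 assembly factors, 0 were called, with a median of -0.05. At an unadjusted limma p-value under 0.05, 2 of them were higher and 3 lower. At this threshold 2609 of all 16714 tested genes were higher and 2505 lower. Of 16 translation factors, 2 were called higher and 3 lower (31.25%, background 14.0%). *Mtif2*, the initiation factor that brings the first tRNA to the mitoribosome, rose from between 556 and 663 normalized counts in the other libraries to 1233 in TG-3 and 1416 in WT-3. *Pdf*, which removes the formyl group from new mitochondrial peptides, and *Gfm1*, an elongation factor, were called lower. Of 17 mitochondrial aminoacyl-tRNA synthetases, *Pars2* was called higher and *Mars2* lower (11.8%, background 14.0%). After the correction for transcript length and GC content, 1 assembly factor, 3 translation factors and 4 synthetases were called lower, against a background of 11.3%. Called higher there were 1 translation factor, 1 synthetase and 1 of the proteins with other symbols, against a background of 8.15%. *Mtif2* had a log2 fold change of 1.22 without TG-3 and of 0.96 without WT-3. The other calls of these 4 lists did not hold when either library was left out. In TG against WT, 0 genes of these 4 lists were called or had an unadjusted p under 0.05 in the limma fit.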

How the data were processed

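RNA-seq of mPFC pools (2 mice each, 3 per genotype) was analysed from the values deposited by the authors. Stranded mRNA libraries were read as paired ends, and the authors estimated transcript abundance with Salmon 0.9.1 on GRCm38 with GC bias correction, summed it to genes with tximport in R 3.6.0 and divided it by DESeq2 1.19.11 size factors. The deposited signal is therefore normalized read counts, not whole reads, so no counting interval was computed and a count model was not fitted. A library summed to between 28363967 and 29447717.

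The members, the lists and the split by the libraries numbered 3 were chosen with earlier results of these data known. Positions, names and transcripts came from GENCODE M21, which held 18231 of the 18254 genes, and promoters from RefSeq. Genes with a mean of at least 5 (16714) were fitted as log2(normalized count + 1) with limma 3.58.1 in R 4.3.3 (lmFit, eBayes with trend), with two-sided p-values adjusted after Benjamini and Hochberg and called under 0.05. The models held the genotype, or the genotype and a term for the libraries numbered 3, with their interaction in a further fit. The fits were also run on simulated data with noise drawn independently for each value. The simulated genotype comparison held no difference of the libraries numbered 3, unlike these data, so it does not show how that test performs here. The labels do not say whether the pools were processed apart, and the p-values measure the spread between these libraries. An exact permutation test of 3 against 3 could not go below 0.1.

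The pairing by replicate number was examined by the correlation of the libraries' deviations from the genotype means. It was 0.30, 0.33 and 0.62 for the same-numbered pairs. It was 0.27 for TG-1 with WT-2 and 0.23 for TG-2 with WT-1, so the numbers 1 and 2 were barely told apart. For the pairs of a library numbered 3 with another number it was between -0.44 and -0.39. The deviations of a genotype sum to 0, so these negative values follow in part from the 0.62. Members were named if among the 5 smallest p-values in each direction of a comparison, the 3 highest or lowest per kilobase, a member pair, or fixed for their role, and at most 3 genes of another list. Alternatives were pseudocounts of 0.1 and 5, no filter or a mean of at least 50, upper-quartile and quantile scaling, eBayes without trend or with the robust option, an empirical null, a length and GC correction (mgcv 1.9.3), the replicate block, a term for the libraries numbered 3, and each library left out. The libraries numbered 1 and 2 alone, *Mrpl23* summed with its copy, levels per kilobase of transcript, and the other lists without TG-3 or WT-3 and after the length and GC correction, were alternatives added once the data had been seen. Words of 31 bases, alignments and motifs were computed in Python 3.11.15 with Biopython 1.88.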

Additional observations from a re-analysis of the deposited data

How the results depend on the processing

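The count of 0 called members in TG against WT did not change under any alternative run. The members at an unadjusted p-value under 0.05 in that comparison went from 0 to 1 with the empirical null, with the replicate block and with the replicate block and the length and GC correction, and were 0 to 1 when single libraries were left out. The block changed no call of a member. The members without overlap between the genotypes went from 3 (3.85%; background 6.02%) to 1 with the length and GC correction, with and without the block (1.28%; background 5.97%). They went to between 4 and 12 when single libraries were left out (5.13% to 15.4%; backgrounds 11.1% to 15.9%), and to 17 with the libraries numbered 1 and 2 alone (21.8%; background 26.1%). *Mrpl14* in TG against WT went from 0.18 to -0.0151 without TG-3 and lay between -0.0151 and 0.32 over the libraries left out. For the libraries numbered 3 against the others, the 17 called members (21.8%; background 14.0%) fell to 5 with eBayes without trend (6.41%; background 3.19%) and to 0 with the empirical null (background 0%). Leaving out single libraries gave between 1 and 14 calls (1.28% to 17.9%; backgrounds 1.33% to 15.3%). It was 1 without WT-3 (*Mrps12*), 3 without TG-3 (*Mrps12*, *Mrps15* and *Mrps5*), 9 without WT-2 and 10 without TG-1 or TG-2. Under the other alternatives there were 15 to 18 calls (19.2% to 23.1%; backgrounds 12.5% to 19.5%), with 15 to 17 of them shared. The median of all 78 members fell from 0.07 to 0.0276 with the length and GC correction. The cause of these changes was not tested. Without either library numbered 3, the lone remaining one is assumed to vary like the others. The median standard error of a member's difference between the genotypes was 0.11 on the log2 scale, which limits what 3 pools a genotype can show.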
